A study of Mus musculus with 8 samples.

Results

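A list of 37 genes was followed in adipose tissue macrophages (ATMs) of obese and lean mice. They encode lysosomal hydrolases, their cofactors, lysosomal membrane proteins and the receptors that bring hydrolases to lysosomes. The cathepsins were left out, apart from Ctsa (cathepsin A), which is on the list. The genes were taken by symbol, from a list drawn up with earlier results of these data known. Of the 37 genes, 35 were measured among 18820 genes with a single symbol on the array. Sgsh and M6pr had only probe sets that carry several symbols and are given no value. The 35 genes comprise 12 glycan hydrolases, 8 lipid hydrolases and cofactors, 4 enzymes that act on proteins, 9 membrane proteins and 2 sorting receptors.

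ATMs came from epididymal adipose tissue of male wildtype C57Bl/6 mice and were selected on magnetic beads for the macrophage surface protein F4/80. Each of 4 experiments gave 1 array of obese mice on a high-fat diet (HFD) and 1 of lean mice on a low-fat diet (LFD), so that there were 4 arrays per diet, each from a pool of mice. In experiments 1 and 3 the obese mice ate a diet with 45% of its energy from fat, and in experiments 2 and 4 a diet with 60%. Lean mice always ate one with 10%, which the paper describes in a separate form to match each high-fat diet. The sample titles name lard for every diet. Per the labels the diets lasted 16 weeks in experiments 1 and 3, 15 weeks in experiment 2 and 10 weeks in experiment 4. The paper instead gives 16 weeks for its diets, and the labels were followed here. No other treatment or genotype was used on these arrays. All values are log2 levels, and a difference of 1 between arrays is a doubling of the signal. In RNA from a pool of bead-selected cells, fewer cells of a type and less RNA per cell cannot be told apart.

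Lysosomes break down material taken up from outside the cell and material delivered by autophagy. Soluble hydrolases are made in the endoplasmic reticulum, tagged with mannose phosphate in the Golgi and carried onward by sorting receptors, while integral membrane proteins line the organelle and move ions, sugars, amino acids and lipids across it. Many lysosomal genes carry an E-box element known as CLEAR, which is bound by the transcription factor TFEB and its relatives. Macrophages are rich in lysosomes, and ATMs of obese animals are known to take up lipid and the remains of dying adipocytes.

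Promoter windows of 300 bases, from 250 bases before to 50 bases after the start site, were taken from RefSeq (GRCm38.p6) for the 33 listed genes that the table holds. The 8 windows printed here are of genes of all 5 roles whose window holds CACGTG, the core of the CLEAR element, and show how many copies there are and where they sit. CACGTG is in capitals. It is its own reverse complement, so that both strands give the same matches. Lamp1, Igf2r, Gla, Cln3, Ctsa and Glb1 were higher in obese ATMs in all 4 experiments, though only Igf2r and Glb1 among them once the arrays were centred on their medians, whereas Gaa and Arsa, shown beside them, were higher in 3 and in 2 experiments.
Lamp1, chr8:13158911-13159210, plus strand: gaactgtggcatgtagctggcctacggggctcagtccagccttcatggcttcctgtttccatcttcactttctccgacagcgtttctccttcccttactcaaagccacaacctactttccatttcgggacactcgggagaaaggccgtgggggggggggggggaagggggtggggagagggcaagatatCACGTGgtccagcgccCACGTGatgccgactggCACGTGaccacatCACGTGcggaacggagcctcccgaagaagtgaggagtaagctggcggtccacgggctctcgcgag
Igf2r, chr17:12769657-12769956, minus strand: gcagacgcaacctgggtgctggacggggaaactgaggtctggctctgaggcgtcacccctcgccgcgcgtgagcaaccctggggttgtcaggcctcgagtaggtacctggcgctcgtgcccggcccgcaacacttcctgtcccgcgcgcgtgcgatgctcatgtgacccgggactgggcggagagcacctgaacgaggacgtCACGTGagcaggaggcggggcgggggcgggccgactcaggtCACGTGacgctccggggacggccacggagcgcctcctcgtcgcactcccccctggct
Gla, chrX:134600956-134601255, minus strand: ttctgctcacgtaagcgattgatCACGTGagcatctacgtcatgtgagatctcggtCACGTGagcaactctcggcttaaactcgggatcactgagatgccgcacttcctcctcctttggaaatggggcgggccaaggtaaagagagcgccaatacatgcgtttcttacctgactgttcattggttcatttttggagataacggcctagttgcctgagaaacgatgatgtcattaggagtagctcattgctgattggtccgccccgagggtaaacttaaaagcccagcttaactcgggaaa
Cln3, chr7:126583187-126583486, minus strand: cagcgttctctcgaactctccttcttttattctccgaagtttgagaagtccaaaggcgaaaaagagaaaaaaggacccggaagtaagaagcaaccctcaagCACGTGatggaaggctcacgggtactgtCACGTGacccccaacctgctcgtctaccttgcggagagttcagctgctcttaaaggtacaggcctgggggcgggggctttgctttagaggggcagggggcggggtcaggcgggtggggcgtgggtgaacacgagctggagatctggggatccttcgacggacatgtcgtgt
Ctsa, chr2:164833523-164833822, plus strand: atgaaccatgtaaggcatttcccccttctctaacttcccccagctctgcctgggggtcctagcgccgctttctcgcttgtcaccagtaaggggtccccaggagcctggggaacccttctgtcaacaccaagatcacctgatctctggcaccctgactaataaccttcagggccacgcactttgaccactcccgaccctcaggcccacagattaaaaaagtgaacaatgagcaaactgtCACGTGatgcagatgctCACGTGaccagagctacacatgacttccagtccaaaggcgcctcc
Glb1, chr9:114400828-114401127, plus strand: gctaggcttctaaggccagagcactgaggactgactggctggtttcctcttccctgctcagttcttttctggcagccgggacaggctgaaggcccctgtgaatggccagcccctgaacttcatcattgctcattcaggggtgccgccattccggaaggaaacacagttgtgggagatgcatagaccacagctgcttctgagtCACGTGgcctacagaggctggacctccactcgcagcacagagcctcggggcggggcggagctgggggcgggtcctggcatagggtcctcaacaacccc
Gaa, chr11:119267713-119268012, plus strand: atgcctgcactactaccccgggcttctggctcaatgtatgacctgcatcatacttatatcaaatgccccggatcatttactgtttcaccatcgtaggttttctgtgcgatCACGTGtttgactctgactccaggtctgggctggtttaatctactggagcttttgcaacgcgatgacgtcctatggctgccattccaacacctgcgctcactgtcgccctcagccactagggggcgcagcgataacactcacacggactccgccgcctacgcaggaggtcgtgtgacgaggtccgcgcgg
Arsa, chr15:89477375-89477674, minus strand: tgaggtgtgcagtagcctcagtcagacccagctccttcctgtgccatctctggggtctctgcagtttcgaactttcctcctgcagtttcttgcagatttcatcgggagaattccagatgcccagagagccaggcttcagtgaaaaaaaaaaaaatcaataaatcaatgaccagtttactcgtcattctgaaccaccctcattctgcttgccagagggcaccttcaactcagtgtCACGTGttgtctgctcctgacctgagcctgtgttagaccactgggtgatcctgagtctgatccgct

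The window of Lamp1 holds 4 copies of CACGTG between positions -61 and -15 from the start site. The printed windows of Igf2r, Gla, Cln3 and Ctsa hold 2 copies each, and those of Glb1, Gaa and Arsa hold 1. Cln3 and Ctsa each have a further window, not printed, without CACGTG. The longer form TCACGTGA, which contains CACGTG, accounts for both copies in Igf2r, Gla and Ctsa and for 1 of those in Cln3.

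CACGTG was found for 12 of the 33 listed genes (36.4%), against 8.09% of all 27025 genes in the promoter table. TCACGTGA was found for 5 of the 33 (15.2%), against 1.12% of all genes. A gene was counted if any of its windows held the motif. Besides the 8 genes printed, Lgmn, Mcoln1, Naglu and Sgsh hold CACGTG, and Lgmn has a further window without it. The 11 measured genes with it had a median difference of 0.40, and 9 of them were higher in obese ATMs in all 4 experiments, where 11.0% of all genes were. The 21 measured genes without it had a median difference of 0.27, and 9 of them were higher in all 4. With the arrays centred, 3 of the 11 and 5 of the 21 were higher in all 4, where 6.23% of all genes were, and the medians were 0.35 and 0.22. The motif match and the level of a gene were set side by side only, and no test was made between them.

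The question put to the arrays was whether lysosomal genes differ between ATMs of obese and lean animals in each of the 4 experiments. Most of the listed genes were higher in obese ATMs: 20 of 35 (57.1%) were higher in all 4 experiments, where 11.0% of all genes were, and 0 of 35 were lower in all 4, where 7.43% of all genes were. The median difference over the 35 genes was 0.29, against 0.0049 over all genes. All 35 lay above a dim limit of 4.32 on every array, whereas the shares over all genes include dim ones. The median was 0.026 over the 10623 genes left when those under that limit on more than 4 arrays were taken out. In the single experiments 24, 32, 25 and 31 of the 35 genes were higher in obese ATMs in experiments 1 to 4, against 45.8%, 53.6%, 43.1% and 52.6% of all genes.

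The count of genes higher in all 4 experiments depended on the scaling of the arrays. When each array was centred on its own median over the 18820 genes, the count fell from 20 to 10 of 35, where 6.23% of all genes were higher in all 4. That centring takes 0.07, 0.07 and 0.16 from the differences of experiments 1 to 3 and adds 0.08 to those of experiment 4. Before centring, the median difference of all genes was 0, 0.02, -0.01 and 0.02 in experiments 1 to 4. After it, that median was -0.07, -0.04, -0.17 and 0.10, farther from 0 in each experiment. Signs after centring are thus relative to a shifted scale and are read beside the shares of all genes. The 10 were Galns, Gusb, Glb1, Naglu, Psap, Galc, Tpp1, Slc17a5, Igf2r and Sort1. Ids and Arsa were then lower in all 4 experiments, as were 12.3% of all genes. On that scale 22, 26, 16 and 32 of the 35 genes were higher in obese ATMs in experiments 1 to 4 (62.9%, 74.3%, 45.7% and 91.4%), against 34.9%, 43.8%, 24.8% and 68.0% of all genes. The median difference of the 35 genes was -0.06 in experiment 3, where that of all genes was -0.17, and 0.23 for the mean of the 4 experiments, where that of all genes was -0.05.

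No gene passed an adjusted p of 0.05 in limma, a linear model with a spread shared across genes, either with the diet alone (0% of all genes) or with the experiment as a block (0%). The smallest adjusted p among the listed genes was 0.982 with the diet alone and 0.0632 with the block, for Galns. At an unadjusted p under 0.05, 3 of 35 were higher with the diet alone, namely Psap, Igf2r and Sort1, where 3.30% of all genes were higher, and 0 were lower, where 1.51% were. With the block, 17 of 35 were higher at an unadjusted p under 0.05, where 7.95% of all genes were higher, and 0 were lower, where 4.16% were. With the block as a random term the count was 6 of 35, where 7.24% of all genes were higher. With the block and dim genes left out it was 14 of 35, where 11.4% of the genes left were higher. Of the 17, 6 were glycan hydrolases, 4 lipid hydrolases and cofactors, 2 enzymes that act on proteins, 3 membrane proteins and 2 sorting receptors. With the arrays centred and the block, an alternative chosen after seeing the data, 10 of 35 were higher at that p, where 5.20% of all genes were, and Galns passed the adjusted threshold with a difference of 1.09 and an adjusted p of 0.0316.

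**Figure D1:**
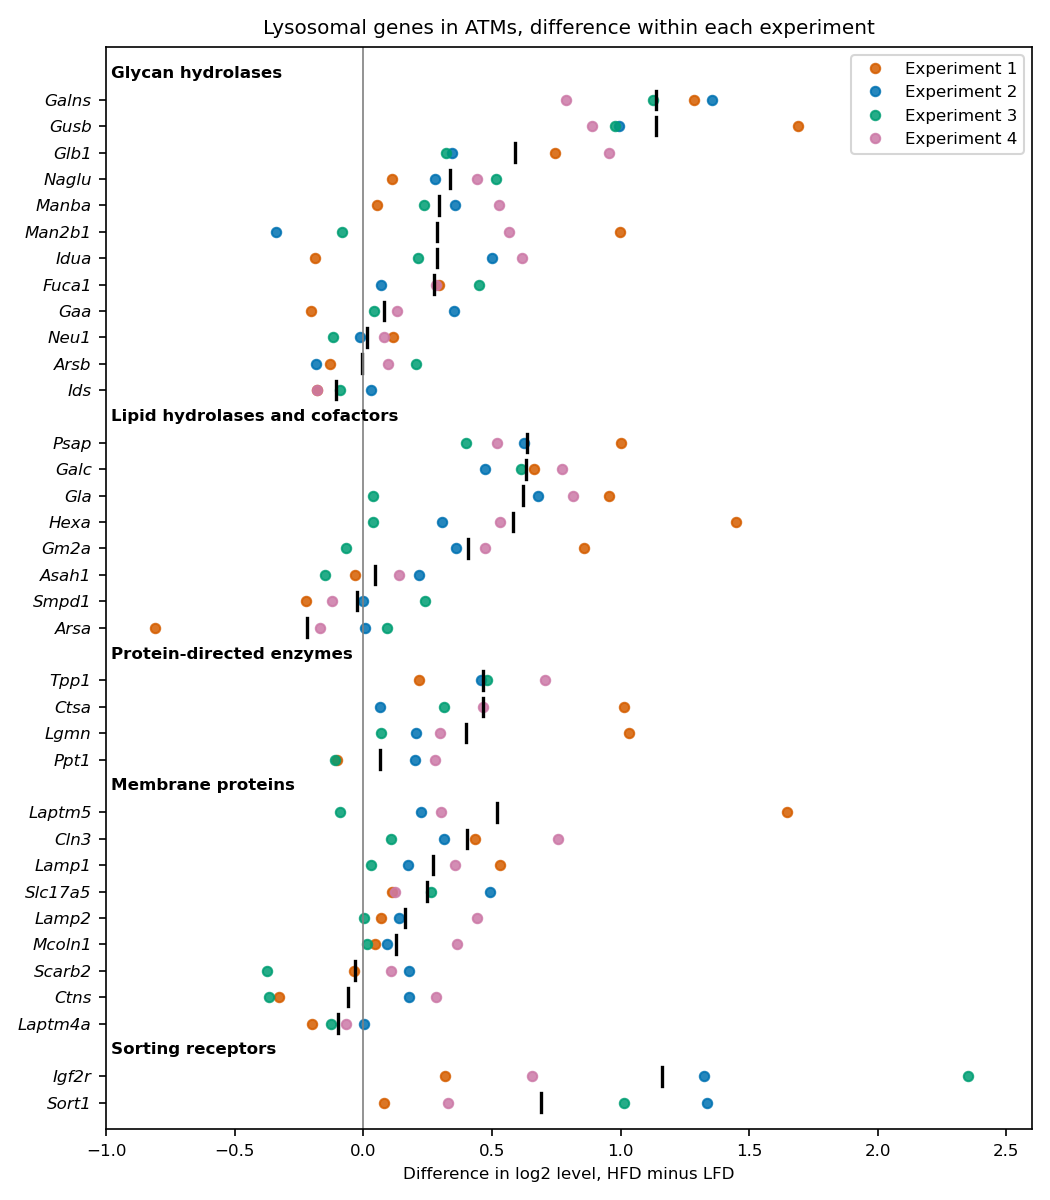
Difference in log2 level between the obese and the lean array of each experiment (x axis) for the 35 measured lysosomal genes (rows, ordered by role and by mean difference). Points are single experiments, coloured by experiment as in the key, black ticks are the mean of the 4, and the grey line marks no difference. All 4 points lie to the right of the line for 20 genes and to the left for none, before centring of the arrays.

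Experiment 1 stood apart from the others for most of the listed genes, and the markers of the sorted cells stood apart with it. In 24 of the 35 genes both arrays of experiment 1 lay under the other 6 arrays, in 3 more the lean array alone did, in 3 (Ids, Arsa and Laptm4a) both lay over the others, and in 5 (Scarb2, Neu1, Smpd1, Igf2r and Sort1) they lay among them. The mean of 10 macrophage markers was 7.39 on the lean and 8.67 on the obese array of experiment 1, and 9.96 to 10.63 on the other 6 arrays. Adgre1, which encodes F4/80, was at 6.54 and 8.58 in experiment 1 and between 9.95 and 10.96 elsewhere. All 10 macrophage markers were higher in obese ATMs in experiment 1, and 6, 1 and 7 of 10 were in experiments 2 to 4. The 1 in experiment 3 was Cd68, which alone of the 10 was higher in all 4 experiments. Cd68 is also counted further below among the other lysosomal genes, so that the 2 lists are not separate.

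Markers of endothelial cells and of fibroblasts and mural cells were present on all arrays, and their differences between diets varied in sign between experiments. The mean of 15 endothelial markers was 10.62 and 10.26 on the lean and obese arrays of experiment 1 and 5.77 to 9.05 on the others, with 0, 1, 15 and 0 of 15 higher in obese ATMs in experiments 1 to 4. The mean of 9 fibroblast and mural markers was 9.08 and 9.14 in experiment 1 and 6.05 to 9.06 on the others, with 5, 7, 9 and 2 of 9 higher in obese ATMs. The 5 dendritic markers averaged 4.59 to 4.95 on the obese and 3.94 to 4.56 on the lean arrays. Of these, Flt3, Xcr1 and Clec9a were under the dim limit of 4.32 on all 8 arrays and only Itgax was higher in all 4 experiments. Itgax differed by 3.68, 2.64, 3.04 and 2.56 in experiments 1 to 4. The paper counts it, as Cd11c, among its macrophage and inflammatory markers, so that it does not single out dendritic cells here. The 6 T and NK cell markers averaged 3.48 to 3.69 on the obese and 3.86 to 3.97 on the lean arrays, means under the dim limit, with Cd3g, Cd8a, Ncr1 and Klrb1c under it on all 8 arrays and Cd4 lower on the obese array in all 4 experiments. The part of these cells in the lysosomal differences was not tested. In experiments 2, 3 and 4 the mean of the 10 macrophage markers differed by -0.15, -0.52 and 0.07, with 6, 1 and 7 of them higher in obese ATMs. Cd163 alone differed by -1.71 and -2.40 in experiments 2 and 3. In all 3 of these experiments 22 of 35 listed genes (62.9%) were higher in obese ATMs, where 17.4% of all genes were. The median difference of the listed genes was 0.26. Without experiment 1 and with the block, 12 of 35 were higher at an unadjusted p under 0.05, where 7.15% of all genes were.

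Single arrays moved the median difference of 0.29 by a good part of its size. It was 0.59 without the obese and 0.05 without the lean array of experiment 1, and 0.16 without the obese and 0.47 without the lean array of experiment 3. It remained above 0 when any of the 8 arrays was left out. These fits used the diet alone, so that the other array of the experiment stayed in without its partner. With both arrays of experiment 1 left out and the block, the median difference was 0.26.

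**Figure D2:**
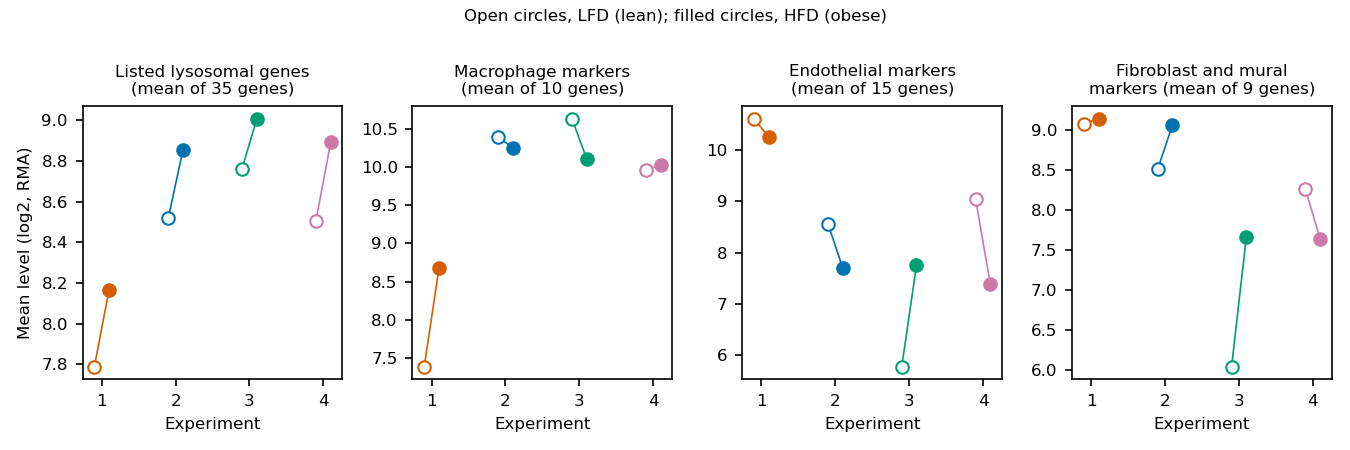
Mean log2 level (y axis, a different range in each panel) of the 35 lysosomal genes, 10 macrophage markers, 15 endothelial markers and 9 fibroblast and mural markers in the 4 experiments (x axis). Open circles are lean and filled circles obese arrays, colours mark the experiment, and lines join arrays of 1 experiment. The mean of the lysosomal genes is higher on the obese array in each experiment. The mean of the macrophage markers is lower on it in experiments 2 and 3, although 6 of the 10 are higher on it in experiment 2. The mean of the endothelial markers is higher on it in experiment 3 only.

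Among the 12 glycan hydrolases, which take apart glycosaminoglycans, glycoproteins and glycogen, 6 were higher in obese ATMs in all 4 experiments. Their median difference was 0.29 (0.32 without experiment 1). For this and each further role, the share of all genes higher in all 4 experiments was 11.0%, and 6.23% with the arrays centred. Galns, a sulfatase for keratan and chondroitin sulfate, was at 6.59, 7.30, 8.09 and 7.99 on the obese arrays of experiments 1 to 4 and at 5.30, 5.95, 6.96 and 7.20 on the lean ones. The obese array was the higher one by 0.79 to 1.35 in each experiment, although the 2 groups overlapped because experiment 1 lay low on both diets. The difference was 1.14 ± 0.50 (SE, n = 4 per diet, adjusted p 0.982), and with the block the adjusted p was 0.0632.

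Gusb, the β-glucuronidase that removes glucuronic acid from glycosaminoglycans, was at 8.73, 9.39, 10.06 and 10.00 on the obese and 7.04, 8.40, 9.08 and 9.11 on the lean arrays. Its difference was 1.14 ± 0.51 (adjusted p 0.982, and 0.0824 with the block), largest in experiment 1 at 1.69 and between 0.89 and 0.99 in the others. Glb1, the β-galactosidase that acts on keratan sulfate and gangliosides, was at 6.52, 7.58, 7.85 and 7.55 on the obese and 5.78, 7.23, 7.53 and 6.60 on the lean arrays. The difference of Glb1 was 0.59 ± 0.43 (adjusted p 0.990), with the obese array higher in each experiment and the groups overlapping.

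Ids, which removes sulfate from dermatan and heparan sulfate, had the lowest difference of the glycan hydrolases. It was at 8.02, 7.92, 7.92 and 7.78 on the obese and 8.20, 7.89, 8.01 and 7.96 on the lean arrays, so that the obese array was lower in 3 of 4 experiments, and in all 4 once the arrays were centred. The difference was -0.10 ± 0.09 (adjusted p 0.998), a small one beside those of Galns and Gusb.

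Naglu, an enzyme of heparan sulfate breakdown, Manba, the β-mannosidase, and Fuca1, the α-fucosidase, were higher in all 4 experiments with mean differences of 0.34, 0.29 and 0.27. After centring, Manba was lower in experiment 1 and Fuca1 in experiment 2. Idua, the α-iduronidase, was higher in 3 experiments (0.28), and Man2b1, an α-mannosidase, in 2 (0.29), with single differences of 1.00 in experiment 1 and -0.34 in experiment 2. Gaa, which degrades glycogen, Neu1, a sialidase, and Arsb, a sulfatase with 2 probe sets, had differences of 0.08, 0.02 and -0.0044. The difference of Neu1 turned below 0 with centring, and the second probe set of Arsb had a difference of -0.0095.

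Of the 8 lipid hydrolases and cofactors, which degrade sphingolipids, 4 were higher in obese ATMs in all 4 experiments and the median difference was 0.49 (0.27 without experiment 1 and 0.05 without its lean array). Psap encodes prosaposin, the precursor of the saposins that present sphingolipids to their hydrolases. It was at 12.16, 12.25, 12.43 and 12.52 on the obese arrays and at 11.16, 11.63, 12.04 and 12.00 on the lean ones. Every obese array lay above every lean array, a pattern that 2 of the 35 genes had, Psap and Sort1, and 1.87% of all genes. The difference of Psap was 0.64 ± 0.20 with the diet alone (adjusted p 0.982) and 0.64 ± 0.12 with the block (adjusted p 0.150). Without experiment 1 and with the block it was 0.51 ± 0.10 (adjusted p 0.269).

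Galc, which cleaves galactosylceramide, was at 6.33, 7.95, 8.22 and 8.02 on the obese and 5.67, 7.47, 7.61 and 7.24 on the lean arrays. Its difference was 0.63 ± 0.56 with the diet alone (adjusted p 0.998) and 0.63 ± 0.09 with the block (adjusted p 0.0818). It was even across the experiments, from 0.47 to 0.77. Gla, the α-galactosidase that cleaves globotriaosylceramide, was at 7.74, 9.01, 8.88 and 9.32 on the obese and 6.78, 8.33, 8.84 and 8.50 on the lean arrays. The difference of Gla was 0.62 ± 0.51 (adjusted p 0.991) and was smallest in experiment 3, at 0.04, where it turned below 0 with centring.

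Arsa, which removes sulfate from sulfatide, was the gene of this role with the lowest difference, -0.22 ± 0.25 (adjusted p 0.999). It was at 6.32, 6.25, 6.08 and 5.90 on the obese and 7.13, 6.25, 5.99 and 6.07 on the lean arrays. The difference rested on the lean array of experiment 1, which was the highest, and was 0.03 without it. Without both arrays of experiment 1 and with the block, the difference of Arsa was -0.02. Hexa, a subunit of β-hexosaminidase, was higher in all 4 experiments with a mean difference of 0.58, of which experiment 1 gave 1.45, and was lower in experiment 3 after centring. Gm2a, the activator of ganglioside breakdown by that enzyme, was higher in 3 experiments (0.41), while Asah1, acid ceramidase, and Smpd1, acid sphingomyelinase, had mean differences of 0.04 and -0.03. The difference of Asah1 turned below 0 with centring.

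Of the 4 enzymes that act on proteins, 3 were higher in obese ATMs in all 4 experiments and the median difference was 0.43, but it was 0.24 without experiment 1 and -0.04 without the lean array of experiment 1. Tpp1, which removes tripeptides from the ends of proteins, was at 9.46, 10.28, 10.57 and 10.50 on the obese and 9.24, 9.83, 10.09 and 9.79 on the lean arrays. The obese array was higher by 0.21 to 0.71, and the difference was 0.47 ± 0.28 (adjusted p 0.988, and 0.193 with the block). Ctsa, cathepsin A, is a carboxypeptidase that also protects β-galactosidase and sialidase. It was at 10.08, 10.95, 11.22 and 11.11 on the obese and 9.06, 10.89, 10.90 and 10.65 on the lean arrays. The difference of Ctsa was 0.46 ± 0.46 (adjusted p 0.999), with 1.01 in experiment 1 and 0.06 in experiment 2, where it turned below 0 with centring.

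Lgmn, the endopeptidase that cuts after asparagine, was at 10.28, 11.60, 11.60 and 11.45 on the obese and 9.24, 11.40, 11.53 and 11.15 on the lean arrays. The difference was 0.40 ± 0.55 (adjusted p 0.999), of which experiment 1 gave 1.03 and the others 0.07 to 0.30. It was -0.13 without the lean array of experiment 1, but 0.19 without both arrays of that experiment, with the block. Centring turned the difference of experiment 3 below 0. Ppt1, which strips palmitate from proteins, had a mean difference of 0.07 and was higher in 2 experiments.

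Of the 9 membrane proteins, 5 were higher in obese ATMs in all 4 experiments and the median difference was 0.16, also 0.16 without experiment 1. Cln3, the membrane protein mutated in a childhood neuronal ceroid lipofuscinosis, was at 7.01, 8.02, 8.34 and 8.35 on the obese and 6.57, 7.71, 8.23 and 7.60 on the lean arrays. Its difference was 0.40 ± 0.42 (adjusted p 0.999), with the largest single value, 0.76, in experiment 4 and the smallest, 0.11, in experiment 3. Slc17a5, which exports sialic acid from lysosomes, was at 7.03, 7.86, 8.37 and 7.62 on the obese and 6.92, 7.37, 8.11 and 7.50 on the lean arrays. The difference of Slc17a5 was 0.25 ± 0.33 (adjusted p 0.999) and kept its sign in each experiment after centring, whereas that of Cln3 turned below 0 in experiment 3.

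Lamp1, a main glycoprotein of the lysosomal membrane, was at 10.55, 11.04, 10.99 and 11.11 on the obese and 10.02, 10.86, 10.96 and 10.76 on the lean arrays. It was higher in each experiment by 0.03 to 0.53, with a difference of 0.27 ± 0.23 (adjusted p 0.991), and centring turned experiment 3 below 0. Lamp2, its companion in the membrane, and Mcoln1, a calcium channel of lysosomes, were also higher in all 4 experiments, by 0.16 and 0.13 on average, and lost that with centring.

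Laptm4a, a small transmembrane protein, was the lowest of this role. It was at 9.97, 9.57, 9.50 and 9.46 on the obese and 10.17, 9.57, 9.63 and 9.53 on the lean arrays, a difference of -0.10 ± 0.18 (adjusted p 0.999). Laptm4a differed by 0.05 without the lean array of experiment 1, but by -0.06 without both arrays of that experiment, with the block. Its relative Laptm5, found in blood cells, had a mean difference of 0.52 that came mostly from experiment 1, with 1.65 there and -0.09 to 0.30 in the others. Scarb2, which carries glucocerebrosidase to lysosomes, and Ctns, which exports cystine, had mean differences of -0.03 and -0.06.

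**Figure D3:**
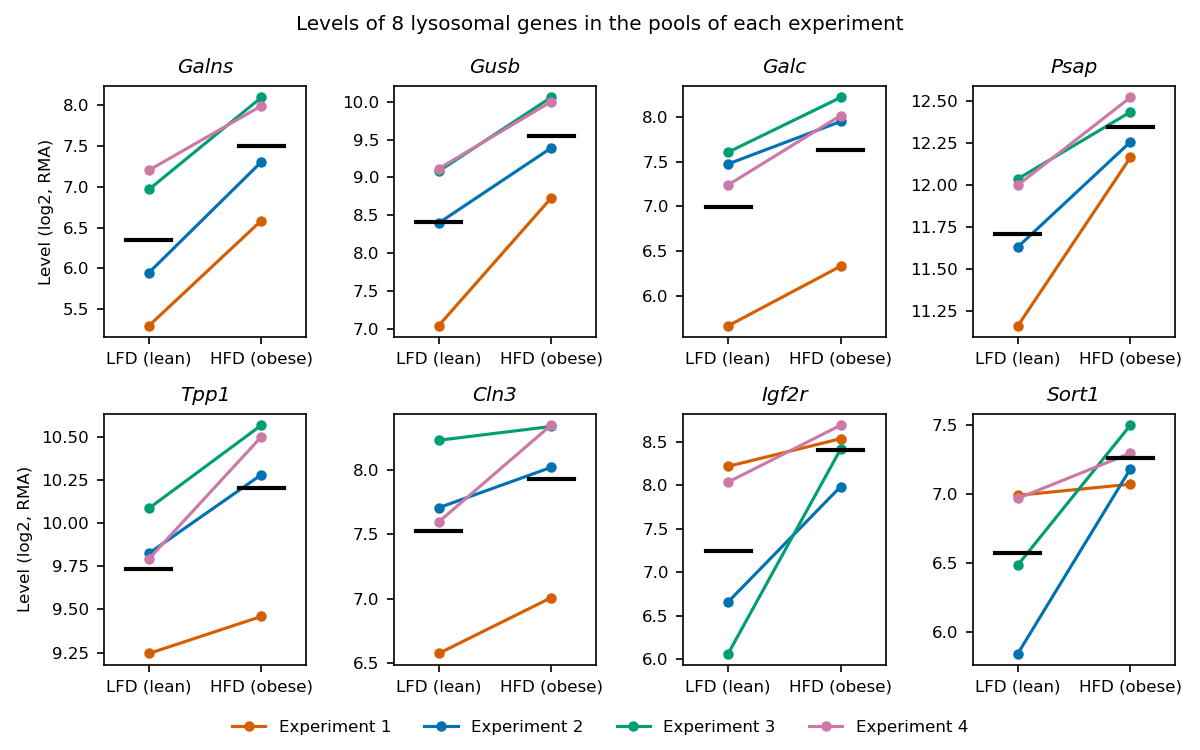
Log2 level (y axis, a range per panel) of 8 lysosomal genes in the lean (LFD) and obese (HFD) arrays (x axis), with 1 panel per gene. Points are arrays coloured by experiment, and lines join the lean and obese array of 1 experiment. Black bars are diet means. Both arrays of experiment 1 lie under the rest for Galc, Tpp1 and Cln3, and each line of Galns and Gusb is higher at its obese end.

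The 2 measured sorting receptors were both higher in obese ATMs in all 4 experiments, with a median difference of 0.93 (1.17 without experiment 1 and 0.20 in experiment 1). Igf2r, the cation-independent mannose phosphate receptor that carries newly made hydrolases to lysosomes, was at 8.54, 7.99, 8.42 and 8.69 on the obese arrays and at 8.22, 6.66, 6.07 and 8.04 on the lean ones. The lean arrays of experiments 2 and 3 were well under all others, and the groups overlapped because the lean arrays of experiments 1 and 4 were above the lowest obese array. The difference was 1.16 ± 0.49 (adjusted p 0.982, and 0.281 with the block), with 0.32, 1.32, 2.35 and 0.65 in experiments 1 to 4.

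Sort1, sortilin, which carries several hydrolases and prosaposin, was at 7.07, 7.18, 7.50 and 7.30 on the obese and 6.99, 5.85, 6.49 and 6.97 on the lean arrays. The groups did not overlap, although the gap in experiment 1 was 0.08 against 1.34 and 1.01 in experiments 2 and 3. The difference was 0.69 ± 0.26 (adjusted p 0.982, and 0.327 with the block). The lean array of experiment 3, the lowest for Igf2r, was also the lowest for the endothelial and the fibroblast and mural lists, at 5.77 and 6.05, and that of experiment 2, the lowest for Sort1, was at 8.57 and 8.51. Whether other cells have a part in the differences of the receptors was not tested.

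**Figure D4:**
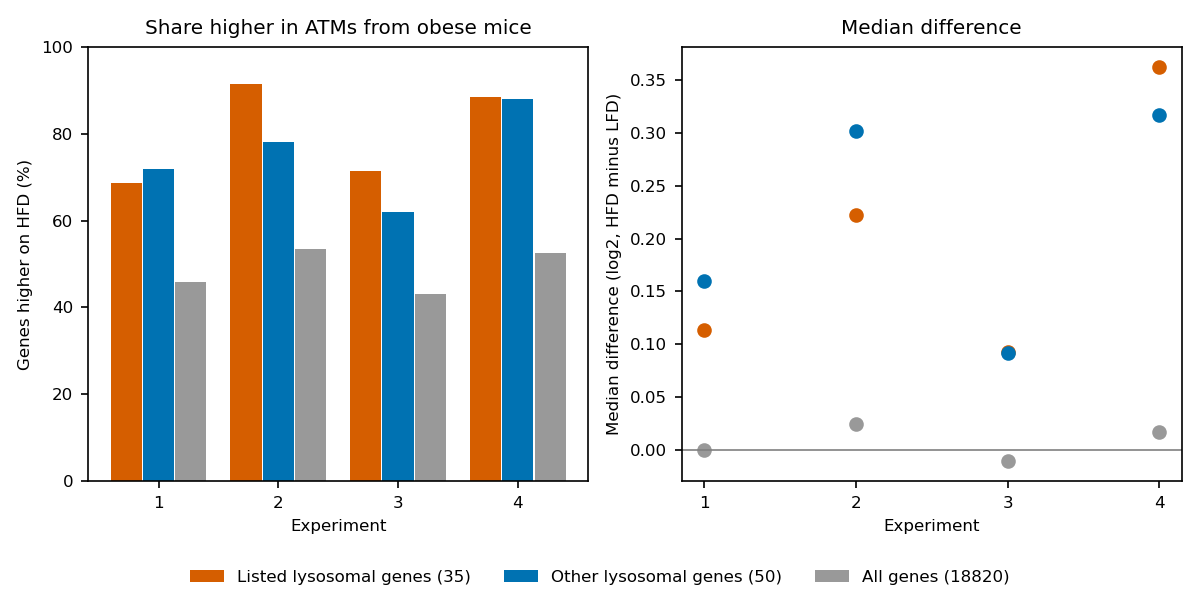
Percent of genes higher on the obese than on the lean array (left, bars) and median log2 difference (right, points) in each experiment (x axis), for the 35 listed lysosomal genes, 50 other lysosomal genes and all genes. The listed genes lie at 68.6%, 91.4%, 71.4% and 88.6% in experiments 1 to 4, above all genes in each, and their median lies above that of all genes in each, before centring, which takes the medians of experiment 3 to -0.06 and -0.17.

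The HFD held different amounts of fat in the 4 experiments, so the listed genes were also compared by fat content, with experiments 1 and 3 (45%) against 2 and 4 (60%). Scarb2, Asah1, Ppt1 and Ctns were lower in obese ATMs in both experiments at 45% and higher in both at 60%, 4 of 35 genes where 6.03% of all genes had this pattern. Ctns differed by -0.33 and -0.37 at 45% and by 0.18 and 0.28 at 60%. It was the 1 listed gene with an unadjusted p under 0.05 for the difference between fat contents in limma, where 3.95% of all genes had one, and its adjusted p was 0.951. No gene passed an adjusted p of 0.05 in that test. Fat content went together with the weeks on diet that the labels give for these experiments. The paper also describes a separate low-fat diet to match each high-fat diet. The parts of fat content, weeks and matched low-fat diet cannot be told apart.

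Another 50 lysosomal genes that are neither cathepsins nor on the list, such as further hydrolases, transporters and sorting and tethering proteins, were read in the same way. Of these, 23 were higher in obese ATMs in all 4 experiments, where 11.0% of all genes were, 2 were lower in all 4, where 7.43% were, and the median difference was 0.23. With the arrays centred, 13 were higher in all 4, where 6.23% of all genes were, 2 were lower, where 12.3% were, and the median was 0.18. In the blocked fit 19 were higher and 2 lower by the unadjusted threshold, where 7.95% and 4.16% of all genes were, and none passed the adjusted one. Gnptab, which encodes the enzyme that makes the mannose phosphate tag read by Igf2r, differed by 0.77 ± 0.26 (adjusted p 0.982, and 0.0731 with the block), with 0.58 to 0.92 in single experiments. Clcn7, a chloride and proton exchanger of the lysosomal membrane, differed by 0.77 ± 0.29 (adjusted p 0.982, and 0.0793 with the block), with 0.57 to 1.01. Lipa, lysosomal acid lipase, which frees fatty acids and cholesterol from lipids that were taken up, differed by 1.10 ± 0.46 (adjusted p 0.982, and 0.116 with the block), with 1.63, 1.30, 0.77 and 0.72 in experiments 1 to 4. The 2 genes that were lower in all 4 experiments were Cd164, a sialomucin, and Smpdl3b, a phosphodiesterase related to acid sphingomyelinase. Cd164 differed by -0.38 ± 0.16 (adjusted p 0.982, and 0.237 with the block). Smpdl3b differed by -0.71 ± 0.60 (adjusted p 0.992, and 0.383 with the block), with only -0.0019 in experiment 1.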

How the data were processed

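RNA of bead-selected ATMs was hybridised to 8 arrays, 4 per diet, and the authors deposited 1 normalised log2 value per probe set and array, made by RMA per the labels (version not given in the sources used here). Of 35556 probe sets, 21218 carried 1 gene symbol, 1881 several and 12457 none in the platform annotation. The brightest single-symbol probe set stood for a gene, which left 18820 genes. Array medians over all probe sets lay between 4.25 and 4.39, whereas centring used the median of each array over the 18820 genes. All 35 measured genes lay above the dim limit (log2 of a signal of 20) on all arrays.

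HFD was compared with LFD in limma 3.58.1 (R 4.3.3; lmFit, eBayes, Benjamini-Hochberg over all genes, threshold 0.05). The array model was not given in the sources used here, and the diet alone was therefore the main design. The labels give an experiment number to 1 array of each diet. That number was taken to pair them, and the fit with experiment as a block is given beside the main one. Deviations of the 2 arrays from their diet means correlated at 0.889, 0.357, 0.652 and 0.186 in experiments 1 to 4. The diet means include experiment 1, which stood apart on both diets, and this can raise the values of experiments 2 to 4 without pairing. Those values therefore cannot show that the arrays are paired. The fits were tested on simulated data with known differences. Values after ± are standard errors of the fit with the diet alone unless the block is named, and those hold the spread between experiments. P-values measure the spread between pools, and the number of arrays limits their precision.

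Values on every array are given for the 3 genes of each role with the smallest p in the blocked fit and for the gene farthest against the sign of the role's median. The genes, lists and tests were chosen with earlier results of these data known. Other settings were array centring, dim probe sets left out, the mean of probe sets, another prior, the methods' t-test, the block as a random term, and arrays or experiments left out. Promoters are from RefSeq (GRCm38.p6), which holds 38 windows for the listed genes, and are credited to that source.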

Additional observations from a re-analysis of the deposited data

Results flagged for a closer look

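In 10 of 70 groups of 4 arrays (each of the 35 genes in each diet), 1 array lay far from the other 3 by Dixon's test, where chance gives about 1 in 20. All 10 were arrays of experiment 1, 5 obese and 5 lean. On the obese array Hexa was at 9.54, Manba at 6.41, Galc at 6.33, Lgmn at 10.28 and Laptm5 at 10.60, each under the other obese arrays. On the lean array Fuca1 was at 8.24, Lgmn at 9.24, Ctsa at 9.06 and Laptm5 at 8.96, under the other lean arrays, and Laptm4a was at 10.17, over them. The macrophage marker mean of that experiment was also the lowest, at 8.67 on the obese and 7.39 on the lean array, and its part was not tested.

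In 4 genes the diet difference had one sign in both experiments at 45% fat and the other sign in both at 60%. The difference at 60% exceeded that at 45% by 0.35 for Scarb2, 0.27 for Asah1, 0.35 for Ppt1 and 0.58 for Ctns. The adjusted p of the limma interaction was 0.951 for each.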

How the results depend on the processing

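With the experiment as a replicate block (the paired analysis), 17 of 35 listed genes were higher at an unadjusted p under 0.05 in place of 3 (7.95% and 3.30% of all genes), and 6 were with the block as a random term (7.24%). Without experiment 1, 2, 3 or 4 and with the block the count was 12, 11, 13 and 9 (7.15%, 4.83%, 8.32% and 5.69% of all genes). It was 14 with dim probe sets left out and the block (11.4%), 10 with the block and centred arrays (5.20%), and 1 by the methods' t-test, near the share of all genes (2.78%). When single arrays were left out it ran from 1 (without the obese array of experiment 3 or of experiment 4, 1.84% and 1.70% of all genes) to 5 (without the obese array of experiment 1 or the lean one of experiment 4, 5.68% and 3.43%), and the median difference ran from 0.052 to 0.59. Over all genes, 25 passed an adjusted p of 0.05 with dim probe sets left out and the block (0 listed genes) and 70 with the block and centred arrays, a setting added after seeing the data, which included 1 listed gene, Galns at 1.09. Under centring alone 10 listed genes were higher in all 4 experiments and 2 lower. Leaving out single arrays turned the sign of 4 results, each without the lean array of experiment 1. The median of the enzymes that act on proteins then ran from -0.037 to 0.72 over the arrays left out, Arsa from -0.34 to 0.035, Lgmn from -0.13 to 0.72 and Laptm4a from -0.21 to 0.052. These fits used the diet alone. With both arrays of experiment 1 left out and the block, the 4 results were 0.24, -0.02, 0.19 and -0.06, each with the sign of the full fit. No other median or listed gene given with all its arrays changed sign under these settings. The cause of these changes was not tested.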
